A study of Homo sapiens with 4 samples.

Results

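The serpins are a family of proteins of which most are protease inhibitors, and their genes were compared between LNCaP cells given exosomes from PC-3 cells and LNCaP cells given PBS. LNCaP is a prostate cancer cell line that responds to androgen, PC-3 is a prostate cancer line that grows without it, and exosomes are small vesicles that cells release. Members were all probe sets that name exactly 1 gene and whose gene symbol is SERPIN, a clade letter from A to I and then digits. They were 63 probe sets of 31 genes, among 44988 probe sets of 18132 genes that name 1 gene each. Each group had 2 Affymetrix arrays. All cells were the same line, grown in RPMI-1640 medium with fetal bovine serum, and the control group's labels name no agent while the treatment text names PBS. The labels used here give no dose, no time of exposure and no statement that the 2 arrays of a group came from separate cultures. The p-values therefore set a change against the spread between these arrays, shared in large part over all genes. That spread may be technical.

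Background on the family explains the order of the results. An inhibitory serpin offers a flexible loop as bait to a protease, and when the protease cuts the loop the serpin changes shape and traps the enzyme in a covalent complex, so that each molecule is used up. Clade A holds secreted inhibitors of the antitrypsin type and some hormone carriers, clade B holds mostly intracellular inhibitors, and clades C to I hold inhibitors of clotting, fibrinolysis and complement, a collagen chaperone and neuroserpin. SERPINA3, alpha-1-antichymotrypsin, is a secreted acute-phase inhibitor of chymotrypsin-like enzymes such as cathepsin G, and it is known in the prostate field because much of the PSA in blood, the product of KLK3, is bound to it. The acute-phase genes are those that liver and epithelial cells switch on in inflammation, in large part through the transcription factors STAT3, C/EBP and NF-kB.

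SERPINA3 is the gene the results turn on, so its promoter is shown with that of SERPINA5, the serpin gene next to it in the cluster on chromosome 14. Both come from RefSeq (GRCh38.p14), run from 250 bases before the gene's start to 50 bases from it on, and are read on the plus strand, at chr14:94612141-94612440 for SERPINA3 and chr14:94581176-94581475 for SERPINA5. Capitals mark matches to TTCNNNNAA on either strand, a loose form of the site that STAT factors bind.

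SERPINA3: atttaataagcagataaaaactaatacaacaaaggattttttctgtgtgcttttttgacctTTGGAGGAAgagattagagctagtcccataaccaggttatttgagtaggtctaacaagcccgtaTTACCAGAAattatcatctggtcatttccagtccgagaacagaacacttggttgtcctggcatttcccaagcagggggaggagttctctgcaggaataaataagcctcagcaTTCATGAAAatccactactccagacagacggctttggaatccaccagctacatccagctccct

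SERPINA5: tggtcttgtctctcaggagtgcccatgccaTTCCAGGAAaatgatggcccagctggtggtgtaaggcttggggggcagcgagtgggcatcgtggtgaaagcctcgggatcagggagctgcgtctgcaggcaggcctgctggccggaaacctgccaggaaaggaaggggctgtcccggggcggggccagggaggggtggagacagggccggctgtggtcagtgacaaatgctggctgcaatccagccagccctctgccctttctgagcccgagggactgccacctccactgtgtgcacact

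The SERPINA3 window held 3 matches to TTCNNNNAA, which begin 189, 125 and 13 bases before the gene's start, and the SERPINA5 window held 1, which begins 220 bases before it. The stricter palindrome TTCNNNGAA, whose matches are all also matches of the loose form, occurred at the SERPINA5 position and at no position of the SERPINA3 window. The loose form was found in 34.8% of 35116 promoter windows of this length and the palindrome in 7.66%. Among the 36 windows of serpin genes, 21 (58.3%) held the loose form and 9 (25%) the palindrome. The loose form is thus not particular to SERPINA3 within the family. The SERPINA3 window also held TGTTCT, a core hexamer of the androgen response element, on the minus strand at 2 positions that overlap by 1 base, and 14.8% of all windows held it. The AP-1 site TGANTCA (7.71% of windows), the NF-kB site (11.3%), the TATA box TATAAA (11.5%) and the GC box GGGCGG (45.0%) were searched on both strands and had no match in the SERPINA3 window. Of the 31 genes 25 had a promoter in this table, with 36 windows in all. A match describes letters only, and no binding was measured.

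The arrays were alike in brightness: over all genes the exosome arrays had median intensities of 195 and 194 and the PBS arrays of 195 each, and precision is limited by how few arrays there are. The 5 measured markers of LNCaP and luminal prostate, among them KLK3, KLK2 and HOXB13, were bright, with a median at percentile 98.2 of all genes. Because the labels' extraction text names brain tissue, 7 brain cortex genes were read too. GFAP, MBP, NEFL, SNAP25 and SLC17A7 were brighter than the mean of the array's background controls, which is taken on the log2 scale wherever it is used here. SYT1 and AQP4 were not, and 0 of the 7 passed the test described below. The summed intensity of the 7 was 1750 to 1762 with exosomes and 1640 to 1717 with PBS, and its part in the results was not tested. The 5 measured genes typical of PC-3 (CAV1, CD44, VIM, MET and AXL) summed to 817 to 835 with exosomes and 848 to 878 with PBS, and 0 of them passed. Of the 6 hepatocyte genes read, because liver is the main source of many serpins, 3 exceeded the background mean and 0 passed, with sums of 555 to 567 on exosome arrays and 572 to 602 on PBS arrays.

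SERPINA3 rose with PC-3 exosomes and was the only serpin gene past the threshold. Its intensity, a normalized brightness on a linear scale, was 206 and 199 on the exosome arrays, against 103 and 110 on the PBS arrays. Both exosome arrays lay far above both PBS arrays, and the gap between the arrays of a group, 0.055 on the log2 scale with exosomes and 0.089 with PBS, was small beside the gap between the groups. The group means were 202 ± 5.46 for exosomes and 106 ± 4.66 for PBS (SD, n = 2 in each group). The log2 fold change was 0.92 (SE 0.079, 95% interval 0.74 to 1.10), a 1.90-fold rise with a limma adjusted p of 0.0011 over all 18132 genes. Fold changes are on the log2(intensity + 1) scale. By size of its rise SERPINA3 stood at rank 12 among all genes. That SERPINA3 rose was known from earlier results of these data, and its call is given here as the base for the comparisons that follow. In a bulk culture, more cells with SERPINA3 RNA and more of that RNA per cell cannot be told apart.

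Left out in turn, no array ended the gene-level call, though a group then has 1 array, assumed to vary like the other group's 2: the log2 fold change was 0.88 to 0.97 and the adjusted p 0.012 to 0.029. Rescaling to the poly-A spike-ins, foreign transcripts put into each RNA as controls, lowers every log2 fold change by 0.14. SERPINA3 then had 0.78 (SE 0.13, against 0.079 before) and was past the threshold. In that fit 388 of all genes passed, in place of 162. A fit that takes in the array numbers of the titles did not keep the SERPINA3 call and is given at the end.

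**Figure D1:**
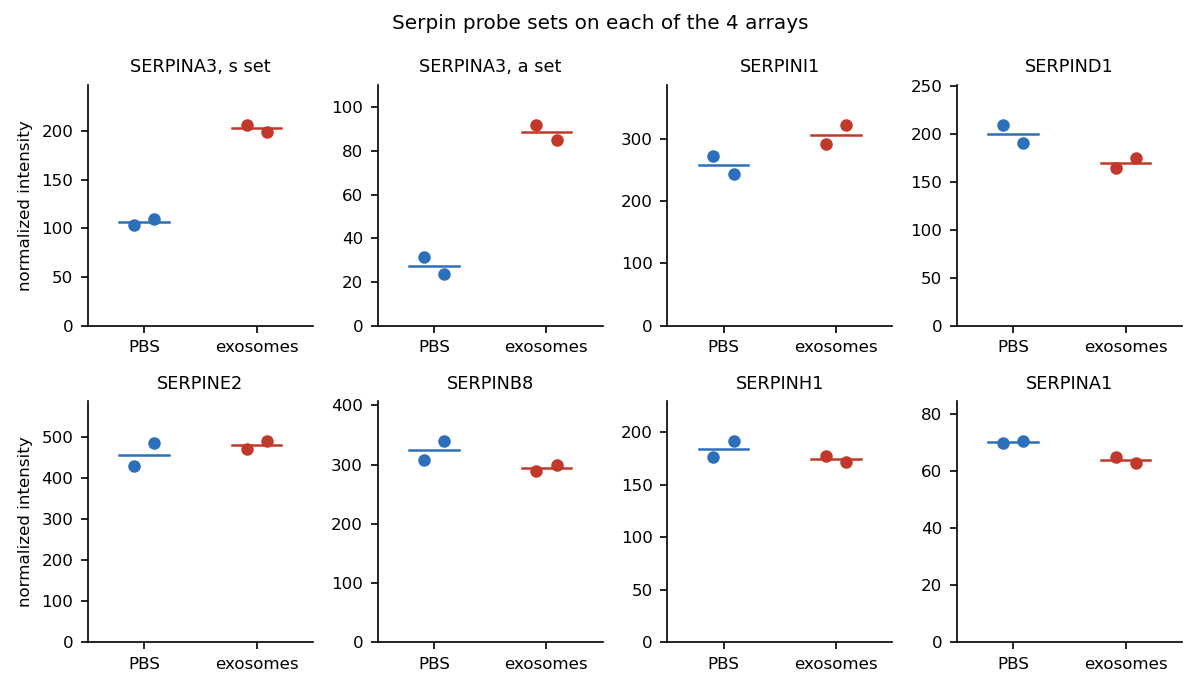
Normalized intensity (linear axis from 0) of 8 serpin probe sets on each of the 4 arrays, PBS in blue and PC-3 exosomes in red, with a bar at each group's mean. Both SERPINA3 probe sets separate the groups widely (106 against 202, and 27.6 against 88.4), while the groups lie close together or overlap in the other 6.

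The array reads SERPINA3 with a second, dimmer probe set, and there the rise was larger. It read 91.9 and 84.9 on the exosome arrays, against 31.5 and 23.7 on the PBS arrays. The exosome arrays again lay above the PBS arrays, and the PBS arrays stood further apart from each other, by 0.40 on the log2 scale, than the exosome arrays did, by 0.11. The log2 fold change was 1.66 (SE 0.13, 95% interval 1.35 to 1.97), which is 3.15-fold, with a limma adjusted p of 0.0091 over the 44988 probe sets tested one by one. In that fit the brighter set had 0.92 with the same adjusted p of 0.0091. The dimmer set had the rise of rank 2 among all 44988 probe sets and the brighter set rank 16.

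The probe sets thus differed in the size of the rise by 0.74 on the log2 scale, and this difference was not tested. On single arrays the brighter set exceeded the dimmer by 1.16 and 1.22 with exosomes but by 1.68 and 2.17 with PBS. The dimmer set's name ends in a, which Affymetrix uses for probe sets that match alternative transcripts of the same gene, and the brighter set's in s, used for probe sets that can match transcripts of more than 1 gene. With PBS the dimmer set's mean of 27.6 lay below 49.2, the log2-scale mean of the 23 background controls taken back to intensity. This, and the lack of a background measured for this set itself, leaves its fold without a firm size. With 16 in place of 1 added before the logarithm its log2 fold change was 1.27. Of all probe sets that name 1 gene, 0.258% passed the threshold, and of the 63 serpin probe sets 2 did (3.17%), both of SERPINA3. The probe-set-level calls were less firm than the gene-level call: without any 1 of the 4 arrays, 0 of the 63 passed, and the dimmer set's log2 fold change was then 1.46 to 1.86 with adjusted p from 0.166 to 0.384.

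Among all serpin genes 1 of 31 passed the threshold (3.23%), against 0.893% of all 18132 genes, and the 1 gene was known beforehand. At an unadjusted p under 0.05 there were 3 of 31 (9.68%), against 10.9% of all genes, and the 3 were SERPINA3, SERPINI1 and SERPIND1. The groups' arrays did not overlap in 12 of 31 (38.7%), against 39.8% of all genes, 5 of them higher and 7 lower with exosomes. These last 2 shares lay near those of all genes. The median log2 fold change was -0.02 over the serpin genes and -0.01 over all genes, and 12 serpin genes lay above 0 and 19 below. Their balance hung on the scale: 16 lay above 0 and 15 below after quantile normalization, with a median of 0.01, and 3 above and 28 below against the poly-A spike-ins, where the median of all genes was -0.15 and that of the serpins -0.16. On that last scale SERPINB1, SERPINB3, SERPINB5, SERPINE2 and SERPINF2, above 0 in the values given here, lay below it. Of the 30 serpin genes besides SERPINA3, 28 had a 95% interval that spans 0, and 29 had one that lay within 0.5 of 0 on the log2 scale, for the brightest probe set of each gene and the scale as deposited.

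**Figure D2:**
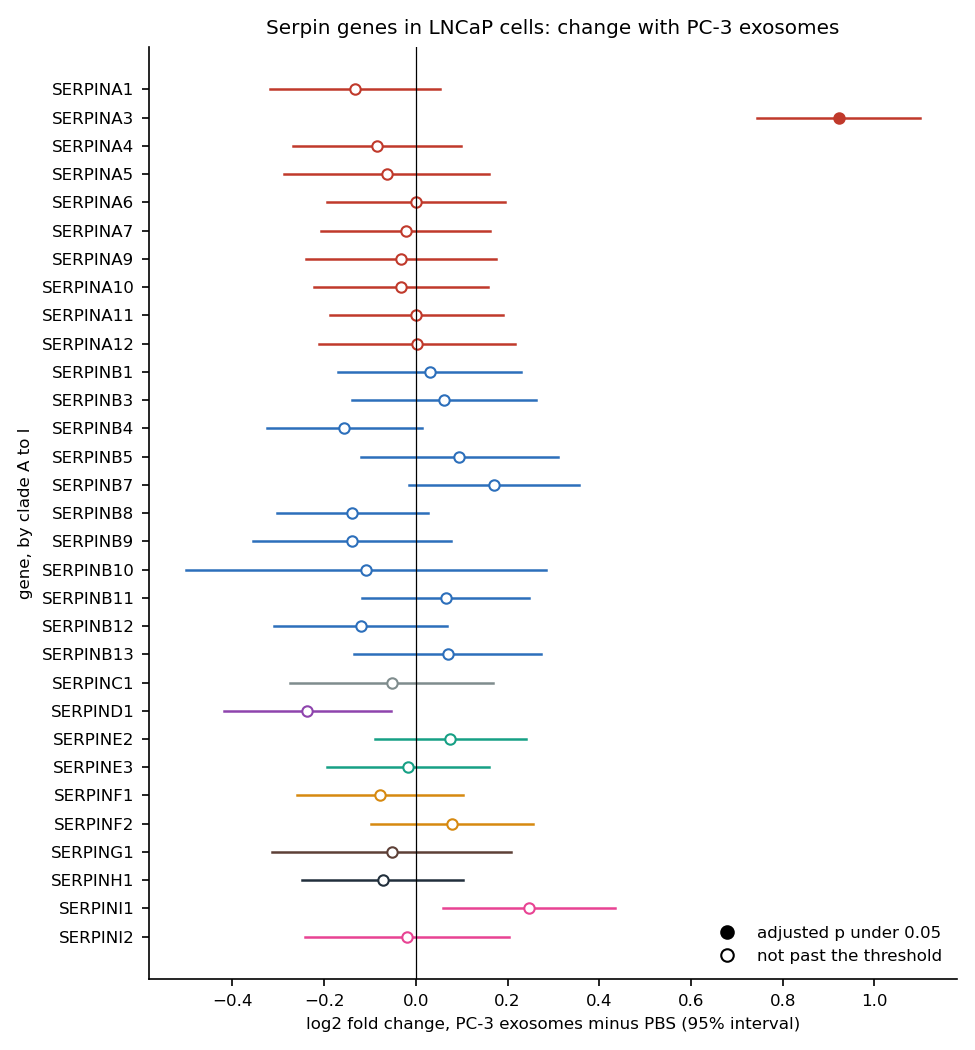
Log2 fold change (PC-3 exosomes minus PBS, x axis) of the 31 serpin genes, ordered and coloured by clade, with the 95% interval from limma; a filled point has an adjusted p under 0.05. SERPINA3, at 0.92, stands alone to the right, and the other 30 genes lie between -0.24 and 0.25.

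The other 9 genes of clade A had log2 fold changes between -0.13 and 0.003, and 0 of them passed. SERPINA1, alpha-1-antitrypsin, the main blood inhibitor of neutrophil elastase and like SERPINA3 an acute-phase protein, read 65.1 and 63.1 with exosomes and 70.1 and 70.6 with PBS. Its exosome arrays were both the lower ones, by 0.13 on the log2 scale (SE 0.082, adjusted p = 0.612), and all 4 of its probe sets were below 0, at -0.15 to -0.02. SERPINA4, kallistatin, an inhibitor of tissue kallikrein, read 88.4 and 90.4 against 96.4 and 93.4 (log2 fold change -0.08, SE 0.081, adjusted p = 0.779). SERPINA5, the protein C inhibitor, which is secreted in the male reproductive tract and can also bind PSA, was dim and its groups overlapped: 36.1 and 42.4 with exosomes, 39.6 and 42.4 with PBS (log2 fold change -0.06, SE 0.099, adjusted p = 0.887).

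The remaining clade A genes had log2 fold changes close to 0. The hormone carriers, which inhibit no protease, were dim: SERPINA6, corticosteroid-binding globulin, had a log2 fold change of -1.7e-05 (SE 0.086) and SERPINA7, thyroxine-binding globulin, -0.02 (SE 0.081). SERPINA9, of germinal centre B cells, SERPINA10, a partner of protein Z that inhibits clotting factor X, SERPINA11 and SERPINA12, the adipokine vaspin, ran from -0.03 to 0.003. Their groups overlapped in every case.

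Most clade A genes stand together on chromosome 14. In RefSeq's order the measured genes there are SERPINA10, SERPINA6, SERPINA1, SERPINA11, SERPINA9, SERPINA12, SERPINA4, SERPINA5 and, at one end, SERPINA3. The 8 neighbours of SERPINA3 had log2 fold changes from -0.13 to 0.003, and SERPINA4 and SERPINA5, the nearest in that order, are given above. The rise of SERPINA3 thus had no counterpart past the threshold among the serpin genes beside it. SERPINA10, SERPINA6 and SERPINA5 did not reach the mean of the background controls, 49.2, and a rise in them could have gone unseen.

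None of the 11 clade B genes passed the threshold, and their log2 fold changes ran from -0.16 to 0.17. SERPINB8, which can inhibit furin, was the brightest of them, with 289 and 299 on the exosome arrays and 309 and 340 on the PBS arrays. Its groups did not overlap, but the log2 fold change of -0.14 (SE 0.072, 95% interval -0.30 to 0.03) had an adjusted p of 0.540, and 1 of its 4 probe sets pointed the other way, at 0.22. SERPINB3, squamous cell carcinoma antigen, an inhibitor of lysosomal cysteine proteases, read 97.9 and 91.6 against 86.6 and 95.1, with overlapping groups (log2 fold change 0.06, SE 0.089). SERPINB5, maspin, a clade B serpin studied as a tumour suppressor in epithelia that does not inhibit proteases in the usual way, read 87.4 and 78.2 against 81.3 and 73.6. Its groups overlapped, its log2 fold change was 0.09 (SE 0.095, adjusted p = 0.794), and its 3 probe sets lay on both sides of 0, from -0.15 to 0.14.

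SERPINB12 was lower on both exosome arrays, at 74.7 and 71.1 against 80.6 and 78.0, without passing (log2 fold change -0.12, SE 0.083, adjusted p = 0.661). SERPINB1, an inhibitor of neutrophil elastase and cathepsin G inside cells, was at the dim end of the array, at 14.7 and 15.5 against 13.7 and 15.8, where its groups overlapped (log2 fold change 0.03, SE 0.088). SERPINB9, which protects cells from granzyme B, had -0.14 (SE 0.095) in its brightest probe set, and its 4 probe sets lay from -0.14 to 0.10. The widest spread among all serpin genes was that of SERPINB10, whose PBS arrays read 28.2 and 43.6 and whose SE was 0.17. SERPINB4, SERPINB7, SERPINB11 and SERPINB13 ran from -0.16 to 0.17. SERPINB4 and SERPINB7 held these extremes at mean intensities of 16.9 and 18.2, and both had an adjusted p of 0.499.

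The serpins of clotting and fibrinolysis gave the lowest value of the family. SERPIND1, heparin cofactor II, an inhibitor of thrombin, read 165 and 174 with exosomes, against 209 and 191 with PBS. Both exosome arrays were below both PBS arrays, and the log2 fold change was -0.24 (SE 0.081, 95% interval -0.42 to -0.05), with an unadjusted p of 0.017 and an adjusted p of 0.307. Its second probe set, dim at 18.5 and 18.2 on average, had 0.03. SERPINC1, antithrombin, was dim, at 31.3 and 32.5 against 36.0 and 30.5 with overlapping groups (log2 fold change -0.05, SE 0.098). SERPINF2, alpha-2-antiplasmin, the inhibitor of plasmin, read 113 and 114 against 108 and 107. Its arrays hardly differed within a group, the groups did not overlap, and the difference was 0.08 on the log2 scale (SE 0.078, adjusted p = 0.789). The second SERPINF2 probe set read 88.6 and 82.1 against 92.9 and 80.2, with overlapping groups, and had -0.02.

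SERPINE2, protease nexin-1, an inhibitor of thrombin and urokinase bound at the cell surface, was the brightest serpin, at 471 and 489 with exosomes, against 428 and 485 with PBS. The groups overlapped, because PBS replicate 2 stood among the exosome arrays, and the log2 fold change was 0.08 (SE 0.073, 95% interval -0.09 to 0.24, adjusted p = 0.784). Of its 6 probe sets 5 were above 0, and the highest, at a mean of 56.5 with exosomes and 42.4 with PBS, had 0.40 (SE 0.12, unadjusted p = 0.014, adjusted p = 0.405 over all probe sets). SERPINE3, the other clade E gene measured, had -0.02 (SE 0.078).

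The remaining clades hold serpins with roles of their own. SERPINI1, neuroserpin, an inhibitor of tissue plasminogen activator in the nervous system, read 291 and 322 with exosomes and 273 and 244 with PBS. Its groups did not overlap, and of all serpins besides SERPINA3 it had the highest log2 fold change, 0.25 (SE 0.083, 95% interval 0.06 to 0.43), with an unadjusted p of 0.016 and an adjusted p of 0.301. It passed under none of the 15 other settings tried, each array left out among them, with values of 0.11 to 0.33, and 0.11 was its value against the poly-A spike-ins. SERPINI2 had -0.02 (SE 0.098).

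SERPINH1, also called HSP47, a chaperone of collagen in the endoplasmic reticulum that inhibits no protease, read 178 and 172 against 176 and 191. The groups overlapped (log2 fold change -0.07, SE 0.078, adjusted p = 0.815), and its 3 probe sets were all below 0, at -0.18 to -0.06. SERPINF1, the anti-angiogenic factor PEDF, also without inhibitory activity, was dim, at 29.8 and 29.1 against 31.5 and 30.8, and its 5 probe sets lay from -0.13 to -0.01. SERPING1, the C1 inhibitor of complement and the contact system, read 20.7 and 20.4 against 18.6 and 24.3, so that the PBS arrays lay on both sides of the exosome arrays (log2 fold change -0.05, SE 0.12).

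In brightness the family lay in the lower part of the array. The median serpin gene had a mean intensity of 49.5, at percentile 20.7 of all genes, and 17 of the 31 were under the 25th percentile and 3 at or above the 50th. Those 3 were SERPINE2 (percentile 68.4), SERPINB8 (59.7) and SERPINI1 (57.7), and SERPINA3 stood at 45.1. In 16 of 31 serpin genes (51.6%) the brighter group reached the mean of the background controls, against 80.0% of all genes. These controls ran from 10.5 to 3661 with the base composition of their probes. Their median was 19.2 and their mean, on the log2 scale, 49.2. A gene that did not reach that mean can exceed most single controls, as SERPINA5 did with 13 of the 23. That mean is therefore no detection limit for a given gene, and brightness of different probe sets is not a measure of which RNA was more abundant. Of the 15 dimmer serpin genes 0 passed the test, and a change in them could have gone unseen.

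**Figure D3:**
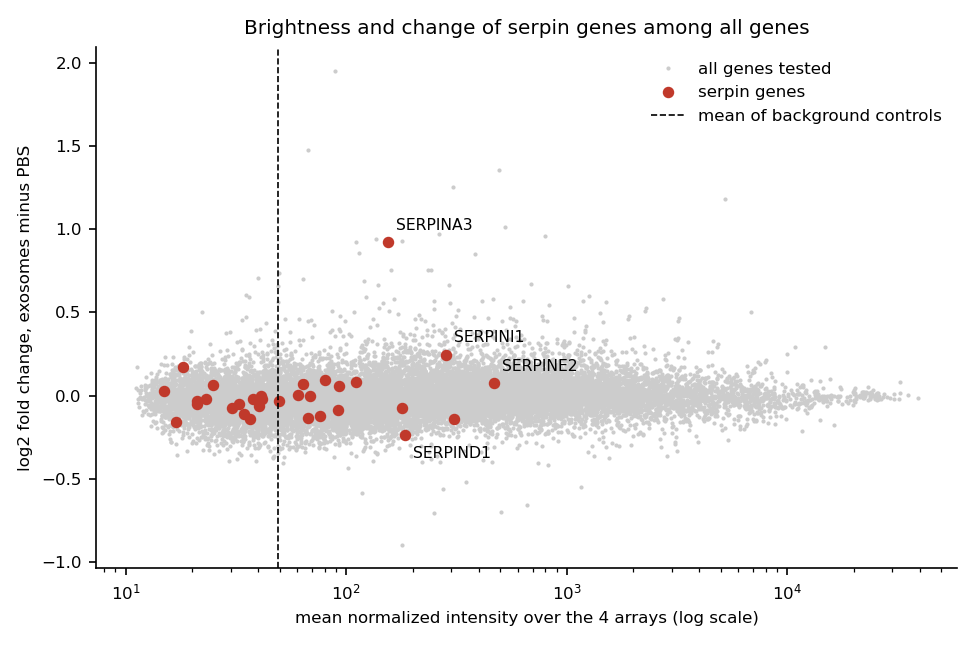
Mean normalized intensity over the 4 arrays (x axis, log scale) against the log2 fold change with PC-3 exosomes (y axis) for all 18132 genes in grey and the 31 serpin genes in red. The dashed line is the mean of the background controls on the log2 scale, 49.2 when taken back to intensity. Most serpins crowd at the dim left near 0, and SERPINA3 lies well above most grey points near its brightness. CFB, at a mean intensity of 136, lies about as high, at 0.94.

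Of the 15 serpin genes with more than 1 probe set, 6 had all their sets on the same side of 0, and 9 had sets on both sides. SERPINA3 was the gene with both sets above 0, and SERPINA1, SERPINA10, SERPINF1, SERPING1 and SERPINH1 had all theirs below it. The sets of a gene spanned 0.02 (SERPINA10) to 0.41 (SERPINE2) on the log2 scale in these genes apart from SERPINA3, where they spanned 0.74. Probe sets just outside the rule were 5 that name SERPINB3 and SERPINB4 together and those of the pseudogenes SERPINB9P1 and SERPINA13P. The brightest of the shared sets read 151 and 155 with exosomes and 164 and 145 with PBS, and the groups overlapped.

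**Figure D4:**
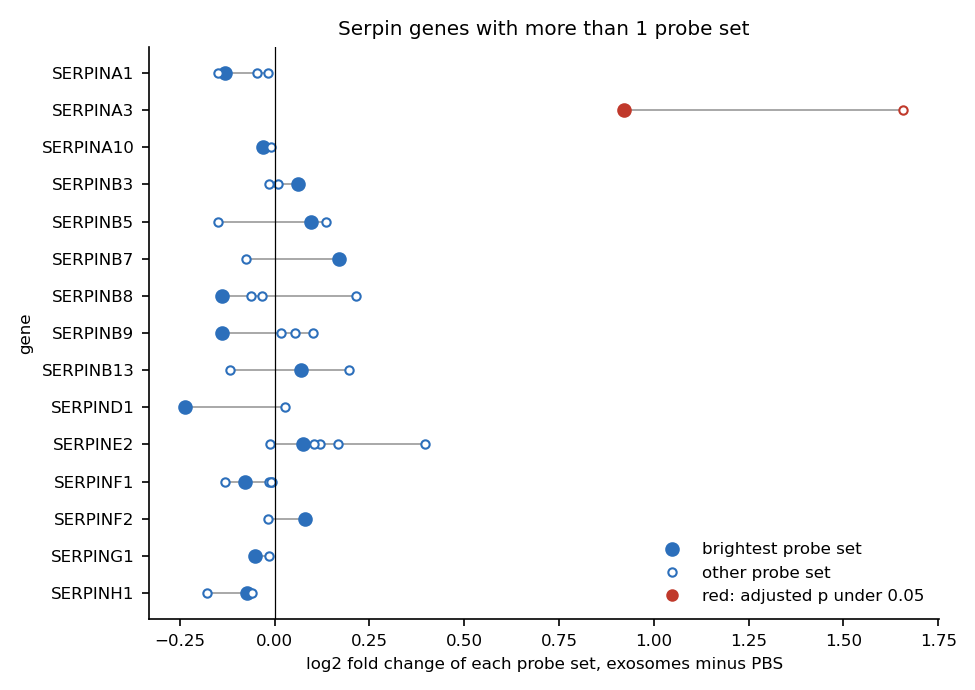
Log2 fold change (PC-3 exosomes minus PBS, x axis) of every probe set of the 15 serpin genes with more than 1; large filled points are the brightest set of a gene, small open points the others, and red marks an adjusted p under 0.05. Both SERPINA3 sets lie far to the right, at 0.92 and 1.66, while 9 genes have sets on both sides of 0.

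The genes that work with serpins were read from 6 lists chosen for this family with earlier results known, and their counts are set beside the 0.893% of all genes that passed and the 10.9% with an unadjusted p under 0.05. Among 51 measured serine proteases of the kinds that serpins inhibit, 1 rose and 0 fell, and the median log2 fold change was -0.01, as over all genes. At an unadjusted p under 0.05, 4 were higher and 1 lower. The gene that rose was HPN, the membrane protease hepsin, which is abundant in prostate cancer, at 1612 and 1735 with exosomes and 1333 and 1321 with PBS (log2 0.33, SE 0.052, limma adjusted p = 0.023). KLK3 and KLK2, the prostate kallikreins whose products meet SERPINA3 or SERPINA5 outside the cell, had log2 fold changes of -0.02 (SE 0.034, adjusted p = 0.916) and -0.07 (SE 0.034, adjusted p = 0.473). CTSG, cathepsin G, and PLAU, urokinase, were dim, at -0.06 (SE 0.088) and 0.09 (SE 0.11), and ELANE, neutrophil elastase, had -0.09 (SE 0.10). In the list of 16 cysteine proteases 1 rose and 0 fell, and the median was 0.06. At an unadjusted p under 0.05, 7 were higher and 1 lower, a larger share than the 10.9% of all genes. The gene past the threshold was CASP4, an inflammatory caspase, at 651 and 630 with exosomes and 459 and 468 with PBS (log2 0.47, SE 0.057, adjusted p = 0.0084). Named after their values were seen, the other higher genes were CTSB, CTSC, CTSF, CTSH, CTSO and LGMN, and the lower gene was CTSV. Of these CTSH came nearest to the threshold, at 0.27 (limma adjusted p = 0.060). Neither HPN nor CASP4 passed once any array was omitted, at 0.28 to 0.39 and 0.44 to 0.49.

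Of 49 other protease inhibitors 2 rose and 0 fell, against 0.893% of all genes, and the median was -0.03. At an unadjusted p under 0.05, 7 were higher and 3 lower. CSTA, cystatin A, an inhibitor of cathepsins in epithelia, read 61.9 and 62.8 with exosomes and 41.3 and 33.3 with PBS (log2 0.74, SE 0.11, adjusted p = 0.019). SPINK1, the pancreatic secretory trypsin inhibitor, read 26.5 and 25.7 against 18.8 and 17.5 (log2 0.50, SE 0.081, adjusted p = 0.027). The groups of both lay apart. Both SPINK1 groups and the PBS group of CSTA lay below the background mean of 49.2, so their folds have no firm size. CSTA was past the threshold only without PBS replicate 1, at 0.58 to 0.89 over the 4 fits, and SPINK1 in none of them, at 0.46 to 0.55. Among 24 receptors that clear serpin complexes and their cofactors 0 passed in limma, where an unadjusted p under 0.05 was reached by 3 that were higher and 0 that were lower, near the 10.9% of all genes. They were SDC4 at 0.26 (adjusted p = 0.288), SDC2 at 0.24 (adjusted p = 0.331) and, named after its value was seen, PROCR at 0.18 (adjusted p = 0.436). PLAUR, the urokinase receptor, had -0.04 (SE 0.082). Among 25 genes of collagen synthesis, where SERPINH1 acts, 0 passed in limma, where an unadjusted p under 0.05 was reached by 2 that were higher and 0 that were lower, a share no higher than the 10.9% of all genes. They were P4HA2 at 0.23 and P4HB at 0.13.

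Of 32 acute-phase genes and factors known to induce SERPINA3, 6 rose and 0 fell, against 0.893% of all genes, and the median was 0.10. In all 22 lay above 0 and 10 below, down to -0.15, and at an unadjusted p under 0.05 13 were higher and 0 lower. Rises of several of them were known from earlier results of these data, so the count is no independent evidence. LCN2, a siderophore-binding protein of the acute phase, read 345 and 358 with exosomes and 178 and 179 with PBS (log2 0.97, SE 0.068, adjusted p = 4.3e-04). CFB, complement factor B, read 175 and 184 against 99.1 and 87.2 (log2 0.94, SE 0.089, adjusted p = 0.0019). STAT3, the transcription factor of the acute phase, read 1503 and 1539 against 1017 and 988 (log2 0.60, SE 0.048, adjusted p = 0.0011). In these 3 genes, as in SERPINA3, the exosome arrays lay far above the PBS arrays, and each was past the threshold with any 1 array left out, at 0.95 to 1.00, 0.85 to 1.03 and 0.58 to 0.62. IL6ST, the signalling receptor chain gp130 of the interleukin-6 family, rose by 0.38 (SE 0.049, adjusted p = 0.010), and the other 2, named after their values were seen, were NFKB1 at 0.34 (SE 0.059, adjusted p = 0.039) and CEBPB at 0.31 (SE 0.054, adjusted p = 0.041). These last 3 did not pass once any array was omitted, at 0.36 to 0.41, 0.29 to 0.38 and 0.27 to 0.34. SERPINA1, an acute-phase gene within the serpin family, did not pass. Also not called, and named after their values were seen, were the cytokines IL6 at -0.05 and IL1B at -0.15. The acute-phase products C3 (-0.09), FGA (-0.08), CRP (0.03) and HP (0.04) were not called either, nor were CP (0.33), ORM1 (0.36) and SAA1 (0.40). In CP, ORM1 and SAA1 the groups did not overlap, and the unadjusted limma p was 0.0063, 0.015 and 0.0049. Both groups of C3, CP and SAA1 lay below the background mean, so their values have no firm size.

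**Figure D5:**
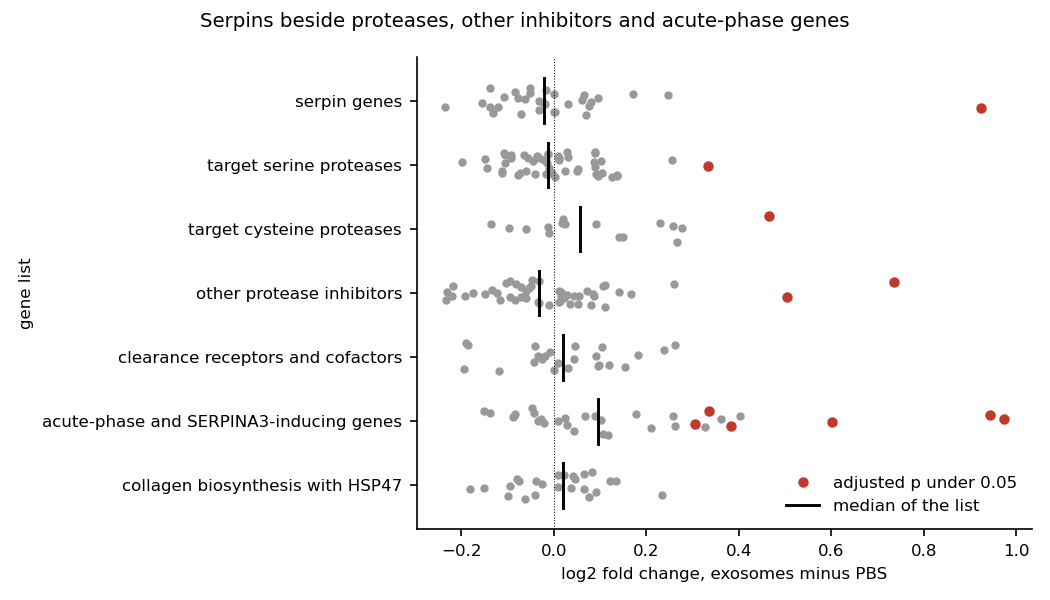
Log2 fold change (PC-3 exosomes minus PBS, x axis) of the serpin genes and of 6 gene lists (y axis), 1 point per gene with vertical scatter for legibility; red points have an adjusted p under 0.05 and the bar is the list's median. The serpins hold 1 red point, SERPINA3, and the acute-phase list holds 6, of which LCN2 and CFB lie near SERPINA3.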

How the data were processed

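RNA of 4 LNCaP samples was read on Affymetrix arrays, 2 per group. The values are normalized intensities on a linear scale, as deposited by the authors, 1 per probe set; per the submitters' processing notes MAS5 and RMA were named, without role or version. Genome build and annotation version: not given in the sources used here. Probe sets were named through the platform's annotation: 44988 name 1 gene, while 1832 with several genes, 2473 with none and 102 controls were left out. The probe set with the highest mean stood for each of 18132 genes. Values were taken to log2(intensity + 1) without further normalization and fitted with limma 3.58.1 in R 4.3.3 (lmFit, eBayes with a trend; exosomes minus PBS, two-sided), with 2 residual and 7.02 prior degrees of freedom. P-values were adjusted by Benjamini-Hochberg over all genes, or over all probe sets where each was fitted on its own, with a threshold of 0.05. With 2 arrays on each side the smallest two-sided p of an exact permutation test is 0.333, and every p given therefore leans on limma's shared variance. The fit was run on simulated data drawn from its own model, which cannot show how it fares on arrays that are not independent. Intervals are limma's, at 95%.

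The members, lists and alternatives were chosen with earlier results of these data known. Values on every array are given for serpin genes past the threshold in either fit, the 5 largest rises and falls among those whose brighter group reaches the mean of the background controls, the 8 brightest and a fixed set of 12 genes, of which 10 were measured. In each list the genes named are the called ones, at most 4 and by size of change, or the 2 of lowest p where none was called, plus 6 fixed genes over all lists. List genes were matched by symbol or RefSeq synonym. The alternatives were other scalings, a pseudocount of 16, filters on dim genes, other summaries of a gene's probe sets, other variance models, a replicate block, and fits without each array in turn. Figures were drawn with matplotlib 3.10.9.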

Additional observations from a re-analysis of the deposited data

How the results depend on the processing

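SERPINA3 was above 0 under each of the 14 alternatives that could test it, at 0.78 to 1.29, and past the threshold in 13. Those that change only the variance model, or which genes or probe sets are tested, keep 0.92 by construction. Its groups did not overlap, so leaving out an array could not change the sign. The genes past the threshold, 162 of all genes, were 244 after quantile normalization, 388 with poly-A spike-in centring, 296 among genes at or above the median intensity, 21 without a variance trend, and 29 to 47 with 1 array left out. A fit without an array leaves a group of 1, which is assumed to vary like the other group. Serpin genes past it, 1 in the values reported, were 0 at or above the median intensity, a filter that leaves SERPINA3 out and keeps 3 serpins. Serpin probe sets past it, 2 as reported, were 0 with that filter, 1 at or above the 30th percentile, 1 without a trend, and 0 to 0 with 1 array left out. Calls in the 6 lists, 10 as reported, were 6 with poly-A centring, 5 with every probe set tested, 3 without a trend, and 3 to 4 with 1 array left out. The serpin median, -0.02 as reported, was -0.16 with poly-A centring, 0.075 at or above the median intensity (3 genes) and 0.068 at or above the 30th percentile (10 genes). The cause of these moves was not tested, except that the filters test fewer genes.

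The titles number the arrays 1 and 2 in both groups without saying what a number shares. With the replicate number as a replicate block, which leaves 1 residual degree of freedom, 2 genes of all passed, with 0 serpin genes, 0 serpin probe sets and 0 list genes, and SERPINA3 was no longer past the threshold, at a limma adjusted p of 0.0846. Its log2 fold change is 0.92 in both fits by construction, since a block cannot move a fold in a balanced layout. With 2 arrays a group, and with most serpins at the dim end of the array, small changes in them could have been missed.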
